A study of Mus musculus with 6 samples.

Results

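The replication-dependent histone mRNAs were examined in an RNA–RNA interactome made by MARIO. The members were the names that begin with Hist1h, Hist2h, Hist3h or Hist4h and are typed as protein-coding, and 66 of 19983 protein-coding names met this rule. There were 6 genes for H1, 18 for H2A, 18 for H2B, 11 for H3 and 13 for H4. On mm9, 55 of the genes lay on chromosome 13, 8 on chromosome 3, 2 on chromosome 11 and 1 on chromosome 6. Hist2h3c1, a near copy of the H3 genes that the files type as a processed transcript, was not a member and is named where it was a partner.

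In MARIO, RNAs are crosslinked to the proteins that hold them, and RNA ends held by the same protein are ligated through a biotin-tagged linker. The product is a chimeric molecule with a first fragment (RNA1), the linker and a second fragment (RNA2), and each of these fragments is called an end here. ES-1 and ES-2 were separate assays on E14 mouse embryonic stem (ES) cells of strain 129/Ola crosslinked by ultraviolet irradiation at 254 nm. ES indirect came from the same cell line, crosslinked with formaldehyde and EGS, agents that also join proteins to each other, and its RNA was first broken by sonication in place of RNase I. MEF came from mouse embryonic fibroblasts of strain C57Bl/6 crosslinked at 254 nm. The first fragmentation aimed, by the labels, at about 1000 nt for the ES libraries and about 300 nt for MEF, and the study's methods give 1000 to 2000 nt for ES-1. The read names place ES-1 and ES-2 on the same 2 flow cells, and ES indirect and MEF on 2 others. Crosslinker, fragmentation and flow cell therefore cannot be told apart between ES indirect and the other ES libraries. ES-2 and MEF were depleted of ribosomal RNA with the GeneRead kit, the remaining libraries with a nuclease specific for duplexes. Cell type, strain, fragment size, depletion and flow cell therefore cannot be told apart between MEF and ES-1. Only ES cells had 2 libraries, which are pooled as ES merged where stated. No test between groups was run, since it would take its spread from this pair alone. Intervals in brackets are 95% Wilson intervals and cover counting error only.

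Replication-dependent histone genes supply the histones that package newly copied DNA, and their mRNAs accumulate in S phase. H2A, H2B, H3 and H4 form the nucleosome core, and H1 binds the linker DNA between nucleosomes. These mRNAs carry no poly(A) tail. They end a few bases after a conserved stem-loop, which is bound by the stem-loop binding protein, and the cut that makes this end is directed by the U7 small nuclear RNA, which base pairs with the pre-mRNA downstream of the stem-loop.

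The stem-loops are shown first because the position of fragment ends is described relative to them. The search took the RNA strand after each stop codon and asked for a stem of 6 base pairs that opens with GG and closes with CC, G-U pairs allowed, around a loop of 4 bases that starts with TTT. It found a match in 60 of the 66 members and, within 100 bases after the stop codon, in 6 of 21233 other protein-coding genes (0.0283%), of which H2afx is a histone gene. Hist1h2al, Hist1h2an, Hist1h3g, Hist1h4a, Hist2h2bb and Hist2h2be gave no match, which says only that these letters were not in the annotated window. The last base of the stem lay 37 to 74 nt (median 47) after the stop codon. Hist2h3c2 was matched too, but no distance from a stop codon was available for it. There were 6 distinct sequences, each given below as DNA of the RNA strand with the stem-loop in capitals, in the gene of that sequence with most fragments ending just after it.
Hist2h2aa2 (39 genes of H1, H2A, H2B and H3; chr3:96043699-96043727, minus strand): aaaaaGGCTCTTTTCAGAGCCacccactg
Hist1h3e (8 genes of H1, H2B and H3; chr13:23653764-23653792, minus strand): aaaacGGCTCTTTTAAGAGCCacctccat
Hist1h4f (8 genes of H4; chr13:23643152-23643180, minus strand): tcaaaGGCCCTTTTCAGGGCCacccactt
Hist1h4i (2 genes of H4; chr13:22132827-22132855, minus strand): ttaaaGGCCCTTTTTAGGGCCaccacaaa
Hist1h4j (2 genes of H4; chr13:21827301-21827329, plus strand): ctaaaGGTCCTTTTCAGGACCaccacatc
Hist2h2ac (1 gene of H2A; chr3:96024333-96024361, minus strand): aaaaaGGCTCTTTTTAGAGCCaccaaatc
The H4 genes with a match carried sequences that no other class had, whereas H1, H2A, H2B and H3 genes shared the commonest sequence.

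Genes of a class are near copies of each other, which bears on every pair of histone RNAs reported here. The stretch below is the RNA1 fragment of a read pair that joined Hist1h3d to Hist1h3f, beside the matching stretch of the partner gene, both in the coding region and with the differing base in capitals. They differed at 1 of 90 bases, and a fragment of Hist1h2bc joined to Hist1h2bg differed from its partner gene at 0 of 90. Copies were less alike elsewhere, and a fragment of Hist1h2ae joined to Hist1h2ad, which reached into the untranslated region, differed at 11 of 90.
Hist1h3d (chr13:23667907-23667996, plus strand): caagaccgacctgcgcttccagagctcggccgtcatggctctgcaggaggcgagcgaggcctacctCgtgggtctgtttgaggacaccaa
Hist1h3f (chr13:23636590-23636679, plus strand): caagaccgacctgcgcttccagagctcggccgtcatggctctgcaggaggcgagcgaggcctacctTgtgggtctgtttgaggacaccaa

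ES-1 held 3230403 read pairs, ES-2 1312314, ES indirect 3302146 and MEF 474526, and values for the 4 libraries are given in this order. Read pairs with equal coordinates of both fragments were counted as 1, which removed 28.5%, 5.37%, 49.9% and 21.2% of them. After this, 2701, 1601, 7040 and 121 read pairs had a histone fragment. Lists of marker genes were counted by their exonic sense ends per 100000 protein-coding ends. The latter include intronic and antisense ends, whose share was largest in MEF, so part of a difference between libraries can come from this share. The ES cell markers Pou5f1, Nanog and 7 others had 186, 83.8, 103 and 3.01, and in MEF, with 7 such ends in all, Pou5f1, Nanog, Tdgf1, Dppa5a and Lin28a were at 0. With all ends counted, the ES cell markers had 214, 103, 220 and 21.5. The 9 fibroblast markers had 149, 68, 44.8 and 199 with all ends counted, and 133, 55.5, 27.9 and 184 by exonic sense ends. In the ES libraries these were mostly Fn1, with 550 of 585, 217 of 231 and 279 of 303 ends, whereas in MEF the collagen genes Col1a1, Col1a2 and Col3a1 had 178, 111 and 44 of 429, Fn1 had 72, and Lum and Dcn were at 0. A list of 7 S phase genes, which includes Pcna and Mcm2, had 71.5, 33.2, 37.4 and 4.72, with Pcna and Ccne1 at 0 in MEF, and 80.3, 37.2, 47.2 and 12.9 with all ends counted. MEF is also the library in which 21 histone read pairs of 1 flow cell, of 61, held the same place of the genome on both sides, with RNA2 longer by 10 nt.

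Histone mRNAs gave a larger share of protein-coding ends in the ES libraries than in MEF. The share was 0.659% in ES-1 (2905 of 440768; 0.636 to 0.683), 0.395% in ES-2 (1645 of 416276; 0.377 to 0.415), for ES indirect 0.892% (0.874 to 0.909) and for MEF 0.0687% (160 of 232818; 0.0589 to 0.0802). The intervals of the 4 libraries did not overlap, and the assays ES-1 and ES-2 on the same cells also differed by more than their counting error. Against all ends that were not rRNA, ES-1 (0.146%) and ES-2 (0.144%) lay within each other's intervals, ES indirect stood at 0.53% and MEF at 0.0294%. The share was alike in the 2 flow cells of ES-1 (0.66% and 0.658%) and of ES-2 (0.402% and 0.385%), but it was 0.713% and 1.23% in ES indirect and 0.0486% and 0.0949% in MEF. Without read pairs that held the same place on both sides, MEF stood at 0.0512% in all and at 0.0486% and 0.0548% in its flow cells. Histone ends were mostly exonic in each library, whereas 42.6%, 37.2%, 21.9% and 17.8% of the other protein-coding ends were. Among exonic sense ends only, the histone share was 1.78% (1.72 to 1.85) in ES-1, 1.53% (1.46 to 1.61) in ES-2, for ES indirect 4.44% (4.35 to 4.52) and for MEF 0.411% (0.336 to 0.502). On this measure MEF was again lowest, and ES-1 and ES-2 lay closer to each other. In libraries made from many cells, fewer cells in S phase and less histone RNA per cell cannot be told apart, and the part of the S phase genes was not tested. They were also lowest in MEF, as were the lists of replication-independent histone genes and of histone mRNA factors given below.

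The 5 classes took similar shares of histone ends in ES-1 and ES-2. H1 had 13.2% and 12.4%, H2A 24.0% and 23.0%, H2B 23.1% and 22.0%, H3 23.6% and 23.5%, and H4 16.1% and 19.1%. In ES indirect the shares were 12.9%, 23.7%, 21.4%, 28.7% and 13.4%, and H3 therefore took more of the ends and H4 fewer than in either other ES library. That order did not hold without read pairs in which both fragments filled the read, where H3 stood at 19.5% and H4 at 18.7% in ES indirect. MEF had 34.4% of 160 ends in H2B genes.

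**Figure D1:**
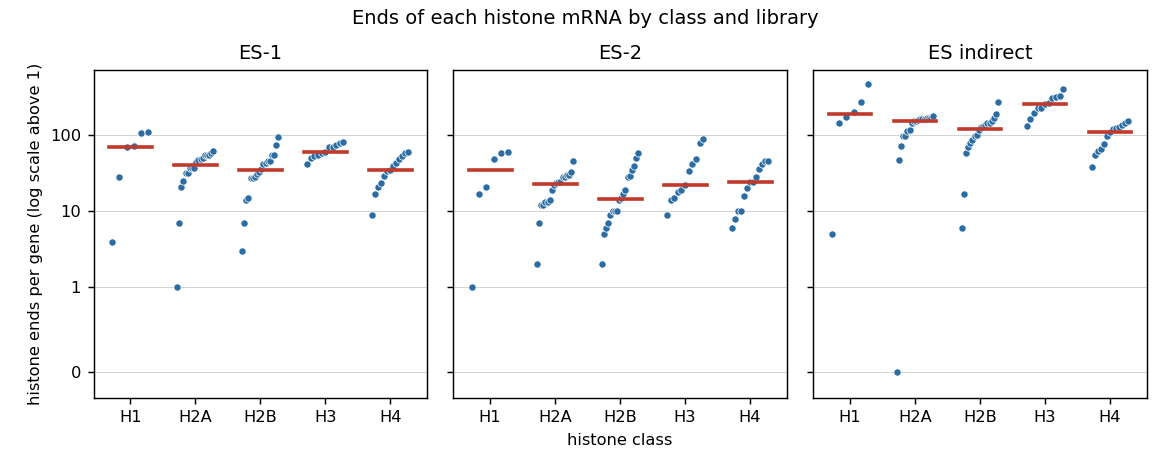
Collapsed ends per histone gene (vertical axis, log scale above 1) in ES-1, ES-2 and ES indirect, by class along the horizontal axis. Each dot is a gene and the red bar is the class median. In ES-1 the medians lie between 34.5 (H2B) and 70 (H1) ends, and every class except H3 holds genes with fewer than 10 ends. In MEF, which is not drawn, no gene exceeds 13.

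All 66 members had ends in each of ES-1 and ES-2, 65 had ends in ES indirect and 55 did in MEF. Among H1 genes, Hist1h1d had 107 ends in ES-1, with 58 for ES-2, 459 for ES indirect and 9 for MEF. Hist1h1c had 105, 48, 272 and 7, and Hist1h1e had 71, 59, 200 and 2. These linker histone genes, whose coding regions are the longest, had the highest class median of ends in ES-1 (70) and in ES-2 (34.5), although Hist1h1t, the testis-specific H1, had 4, 1, 5 and 0.

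Among H2A genes, Hist1h2ah had 49, 45, 152 and 2 ends in the same order, Hist2h2aa2 had 62, 30, 150 and 3, and Hist1h2ae had 54, 33, 174 and 2. Hist1h2aa, with 1, 2, 0 and 0 ends, had the fewest over the 4 libraries together. Among H2B genes, Hist1h2bq had 93, 58, 269 and 1, Hist1h2be had 73, 49, 188 and 13, and Hist1h2bl had 54, 39, 142 and 1. H2B genes ranged in ES-1 from 3 ends (Hist2h2be) to 93.

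H3 genes had between 42 and 81 ends in ES-1 and between 9 and 87 in ES-2. Hist2h3c2 had 81, 87, 224 and 3 ends, Hist1h3e had 77, 78, 305 and 1, and Hist1h3i had 74, 48, 395 and 3. Among H4 genes, Hist1h4k had 59, 45, 107 and 2, Hist1h4n had 57, 42, 152 and 1, and Hist1h4a had 48, 36, 142 and 1. Hist2h3c2 and Hist1h3e had as many ends in ES-2 as in ES-1 within counting error, although ES-2 had fewer histone ends in all.

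Levels between genes were compared per kilobase of coding region, because annotated exons run to 3821 nt in Hist1h1d, far past its stem-loop, and to 312 nt in Hist1h4k. Of the 66 members, 64 entered, with coding regions of 309 to 669 nt, and sense ends centred in the coding region were counted. Genes without an annotated coding region, or with a much longer one on the genome, were left out, which removed Hist2h2bb and Hist2h3c2. On this scale Hist1h2bq was highest in ES-1 (228 ends per kb), and the next 5 genes, Hist1h2be, Hist1h4n, Hist1h3e, Hist1h4k and Hist1h3i, lay between 174 and 180 and within counting error of each other. In ES-2 Hist1h3e was highest (176), followed by Hist1h2bq (148) and Hist1h4k (142), and in ES indirect Hist1h3i (963), Hist1h3h (765) and Hist1h3c (755) were. Hist1h1d, with most ends in ES-1, had 152 per kb there. By class, the median per kb in ES-1 was highest in H3 (138.5) and lowest in H2B (74.1), whereas in ES-2 H4 was highest (68). Across the 66 genes, log2 of the end counts plus 1 correlated between ES-1 and ES-2 with r = 0.76 (Spearman's rho 0.68), between ES-1 and ES indirect with r = 0.92 (0.88) and between ES-2 and ES indirect with r = 0.75 (0.61). These values describe the libraries: genes are not independent replicates, near copies can exchange fragments, and ES-1 shared its depletion method with ES indirect.

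In the ES libraries, ends lay in the mature mRNA and on its strand. In ES-1, 79.0% lay in regions the files call exon, 9.33% in the 5′ and 10.9% in the 3′ untranslated region, and 0.792% in introns; in ES-2 the shares were 83.0%, 5.84%, 10.3% and 0.79%. H3 had the largest share in the 3′ untranslated region in ES merged, 21.7% (19.3 to 24.2), and H1 the smallest, 3.74% (2.48 to 5.6). In ES indirect H4 (18.6%; 16.5 to 20.8) and H3 (18.1%; 16.7 to 19.6) were highest, and H1 was again lowest at 4.55%. In MEF, 13 of 160 ends (8.12%) were intronic. Intronic ends came from H2B genes only, with 96 of them over the 4 libraries in Hist2h2bb, 25 in Hist1h2be, 12 in Hist1h2bc, 7 in Hist1h2bq and 3 in Hist1h2br, whose annotation includes spliced transcripts.

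Of histone ends, 98.9% (ES-1), 97.9% (ES-2) and 99.7% (ES indirect) were sense to the gene, against 84.5%, 66.7% and 87.8% of exonic ends of the other protein-coding names. In MEF the share was 65.0% (57.3 to 72.0) against 55.3%, and 70.3% (61.6 to 77.8) without the same-place read pairs. Antisense ends in MEF were mostly RNA1, of which 46.4% were sense, and 37.2% in the flow cell that held the same-place read pairs. The sequence of the histone fragment matched mm9 at its stated position, with at most 15% mismatches, for 98.6%, 98.6%, 99.7% and 86.2% of ends. MEF values rest on few ends and on less certain placements.

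RNA1 fragments of histone mRNAs ended often just after the stem-loop. The junction between RNA1 and the linker can be placed only where the fragment stops inside the read, so RNA1 fragments of 90 nt, the read length, were left out. Of such fragments, 7.03% in ES merged and 8.9% in ES indirect ended within 20 nt of the last base of the stem. The narrower window used below, 2 to 5 nt after the stem, was chosen after the position of the peak had been seen. In ES-1, 73 of 1036 fragments (7.05%; 5.64 to 8.77) ended 2 to 5 nt after the last base of the stem, in 29 genes. In ES-2 it was 18 of 585 (3.08%; 1.96 to 4.81) in 11 genes, and in ES indirect 130 of 1954 (6.65%; 5.63 to 7.85) in 42 genes. MEF had 4 of 27.

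Most of these ends fell on a single position, the fourth base after the stem, with 51 fragments in ES-1, then 10, 100 and 3 in the other libraries. From 300 to 21 nt before the end of the stem, a position held 2.16, 1.36, 4.57 and 0.0464 fragments on average. Few fragments ended in the stem-loop itself, with 6 (ES-1), 5 (ES-2) and 16 (ES indirect). Fragments that ran more than 10 nt past the stem were rarer still, with 2, 0 and 13, so that a share of up to 0.513% was allowed by the count of 0 in ES-2. When read pairs with the same fragment lengths and the same outer 20 bases were counted as 1, 86 of the 91 fragments of ES merged and 124 of the 130 of ES indirect were left.

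**Figure D2:**
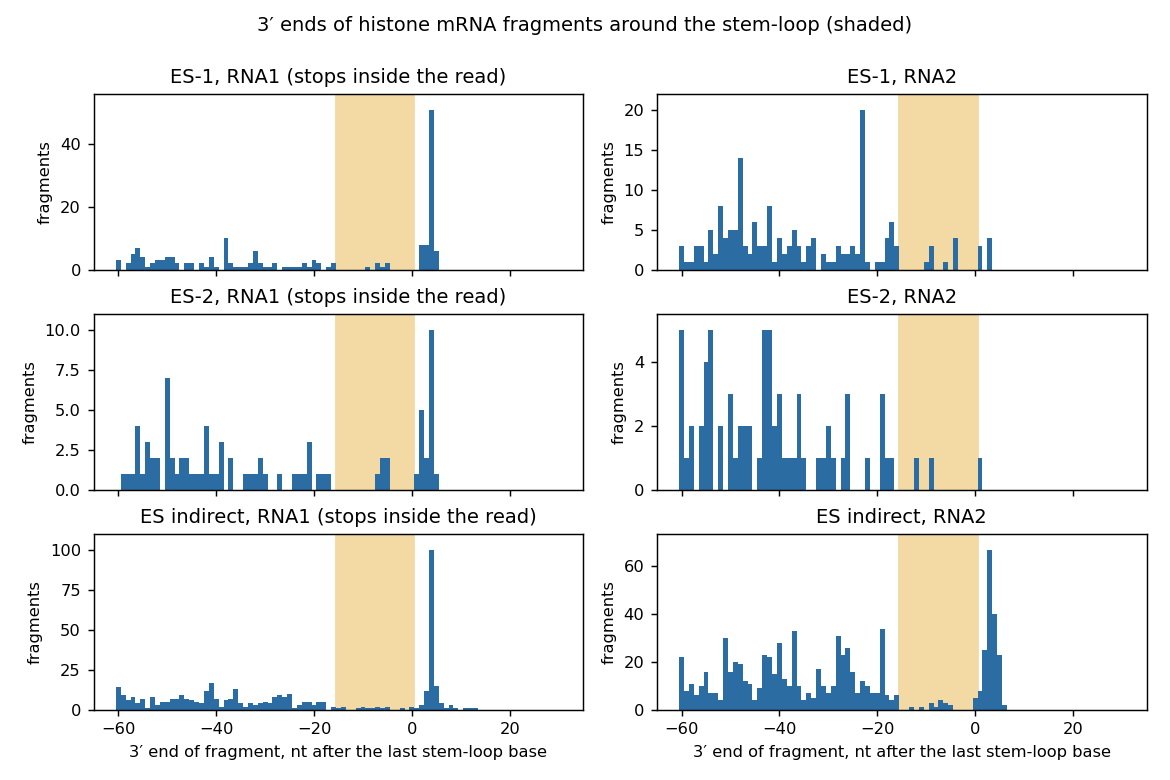
Number of histone RNA fragments whose 3′ end lies at each position relative to the last base of the stem-loop (0 on the horizontal axis, in nt), for RNA1 and RNA2 in the ES libraries. The shaded band is the stem-loop. RNA1 ends peak at 4 nt after the stem (51, 10 and 100), and RNA2 ends gather 2 to 5 nt after the stem only in ES indirect.

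The 3′ ends of RNA2 differed between the libraries. Between 2 and 5 nt after the stem lay 4 of 1393 RNA2 ends in ES-1, 0 of 873 in ES-2 (a count of 0 allows up to 0.344%) and 155 of 4704 in ES indirect (3.3%; 2.82 to 3.84), where the highest position was the third base after the stem with 67 ends. RNA2 is read from its 3′ end, so this end is the outer end of the chimera and not the junction with the linker.

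All classes had RNA1 ends in this window in ES merged: 8.19% of H4 fragments (24 of 293), 6.94% of H3 (27 of 389), 5.13% of H1 (8 of 156), 4.32% of H2B (18 of 417) and 3.83% of H2A (14 of 366), with overlapping intervals. In ES-1 H4 (11.2%) stood above H1 (7.55%) and H3 (6.8%), whereas in ES-2 H3 had 7.19% (3.95 to 12.7), H4 3.51%, H2A 0.758% and H1 0 of 50 (interval to 7.13%). Hist2h3c2 had 10 such fragments in ES merged and 5 in ES indirect, Hist2h2aa2 had 9 and 11, Hist1h4d 9 and 2, and Hist1h4f 8 and 6. Hist2h2aa1, with the same sequence around its stem-loop as Hist2h2aa2, had 0 and 0, and how fragments were placed between these copies was not tested. By stem sequence, the commonest stem held 52 of the 91 fragments of ES merged and the common H4 stem 20. These fragments were joined to rRNA in 69.2% (59.1 to 77.8) of cases in ES merged, against 74.1% (71.8 to 76.2) for the other RNA1 fragments, with overlapping intervals. In ES indirect, another histone mRNA was the partner of 9.23% (5.36 to 15.4) of them and of 13.6% (12.1 to 15.2) of the others, with overlapping intervals, and the same histone mRNA of 1.54% (0.423 to 5.44) and 6.25% (5.23 to 7.46).

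U7 snRNA, which directs the cut after the stem-loop, was present, with 276, 57, 69 and 5 ends. It was joined to a histone mRNA by 0 read pairs in ES-1 (a count of 0 allows up to 1.09% of its ends), 0 in ES-2 (5.26%), 2 (ES indirect) and 0 (MEF). The first of these 2 joined Hist1h2bq, with RNA1 ending 6 nt after the stem at chr13:21901609-21901713 (minus strand), to 55 nt of U7. Its sequences are shown because the junction lay at the 3′ end of the histone mRNA, with the stem-loop in capitals in the last 30 bases of RNA1.
Hist1h2bq, end of RNA1 (chr13:21901609-21901638, minus strand): aacccaaaGGCTCTTTTCAGAGCCacctac
U7, RNA2 (chr6:124691243-124691297, minus strand): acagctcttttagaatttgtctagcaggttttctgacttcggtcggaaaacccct
The second joined U7 to an intronic fragment of Hist1h2br. With 1 read pair each, neither gives a measure of frequency.

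Of the other factors listed for histone mRNA production and decay, 18 protein-coding genes had 50.6, 36.3, 31.3 and 11.2 exonic sense ends per 100000 protein-coding ends, with the libraries in the same order. With intronic and antisense ends counted too, the values were 65.6, 50.7, 69.6 and 38.7. Set against exonic sense protein-coding ends only, the exonic sense ends were 223 of 159833, 151 of 104166, 340 of 215720 and 26 of 22888. On that measure the libraries lay closer together. Upf1, an RNA helicase needed for histone mRNA decay, had 48, 32, 80 and 2 exonic sense ends, and Slbp, the gene of the stem-loop binding protein, had 1, 2, 12 and 1. RNAs of the 18 genes, introns included, were joined to a histone mRNA by 3 read pairs in ES-1, all with Sympk, a scaffold protein of the cleavage complex, and by 0 in the other libraries.

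Read pairs with both fragments in the same histone mRNA numbered 89 in ES merged, of which 68 were from ES-1 and 21 from ES-2, with 774 for ES indirect and 23 for MEF. Of the 23, 21 were the read pairs named above that held the same place on both sides, against 1 in ES merged and 6 in ES indirect. In 82 of the 89, and in 643 of the 774, RNA1 was 90 nt and RNA2 100 nt, the full read lengths, so that neither fragment ended inside its read and no linker was read. In these the fragments lay mostly in the order of the mRNA and close together. RNA1 lay upstream of RNA2 in 74 of the 82, with a median span of 184 nt from the start of RNA1 to the end of RNA2, and in 626 of the 643, with a median of 191.5 nt. By order and spacing they cannot be told apart from a continuous piece of the mRNA.

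Most of the remaining within-RNA read pairs had the other order. In ES merged, RNA2 lay upstream of RNA1 in 5 of 7, in Hist1h2ao, Hist1h1e, Hist1h1d, Hist2h2bb and Hist1h4f, an order that a continuous piece of the mRNA does not give. In ES indirect this held for 93 of 131 (71.0%), and with 5 read pairs at full length for 98 in 41 genes. The H1 genes held 30 of the 98, with 8 in Hist1h1e, 7 in Hist1h1d and 6 in Hist1h1b, and Hist2h2bb also had 8. In 3 of the 5 read pairs of ES merged and 38 of the 98 of ES indirect, the start of RNA1 and the end of RNA2 lay within 2 nt of each other in the mRNA. In Hist1h1d in ES-1, for example, RNA1 covered nt 193 to 213 and RNA2 nt 76 to 191, counted from 0 at the first base of the start codon.

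**Figure D3:**
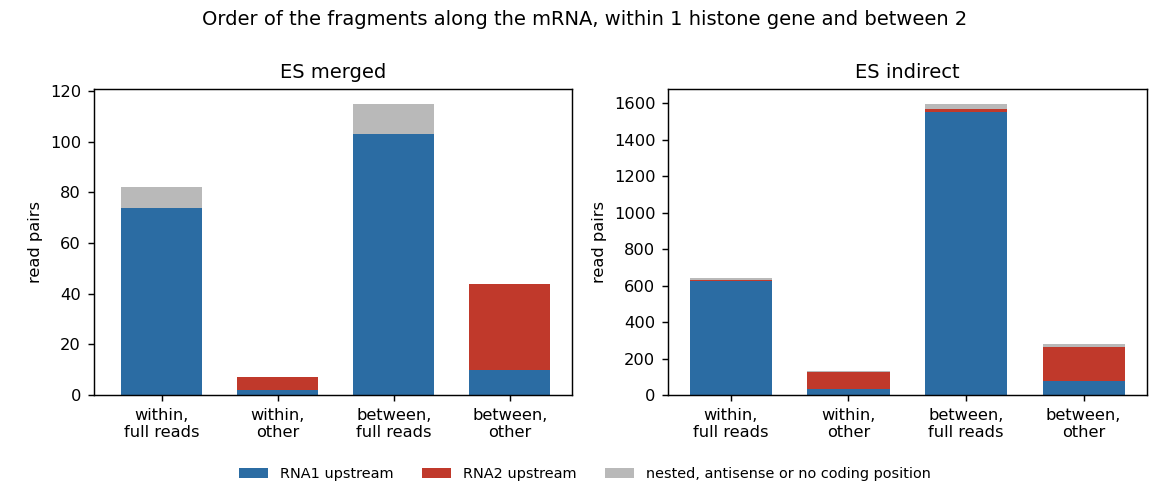
Histone read pairs by the order of their fragments in the mRNA (stacked bars, number of read pairs), for pairs within 1 RNA and between 2 RNAs of a class, at full read length and otherwise. RNA1 lies upstream in 626 of 643 within-RNA pairs at full read length in ES indirect, and RNA2 lies upstream in 93 of 131 of the others.

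Read pairs joining 2 different histone mRNAs stayed within a class. ES merged had 159 of them between 98 pairs of genes, 136 in ES-1 and 23 in ES-2, with 55 in H2A, 49 in H3, 42 in H2B, 7 in H4 and 6 in H1. Between classes there were 0, and a count of 0 of 159 allows a share of up to 1.89%. ES indirect had 1877, with 708 in H3, 541 in H2A, 395 in H2B, 135 in H4 and 97 in H1, and 1 between classes, which joined Hist1h2ag to Hist2h3b. MEF had 16.

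**Figure D4:**
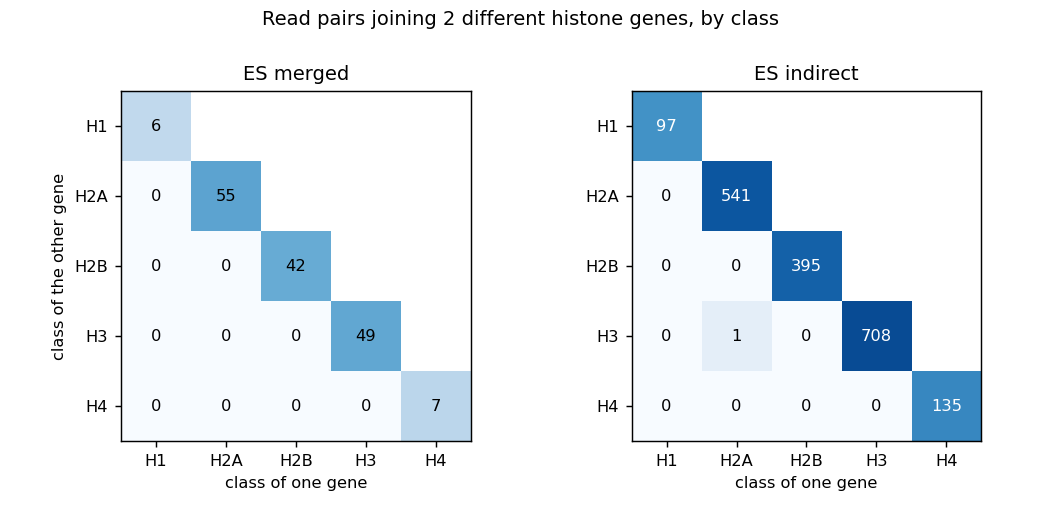
Read pairs joining 2 histone mRNAs by the class of each, as counts in a matrix of the 5 classes for ES merged and ES indirect. The diagonal holds all 159 read pairs of ES merged and 1876 of 1877 in ES indirect, where H3 with H3 is the largest cell (708).

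Nearly all of these read pairs had a fragment that also fitted the partner gene. A fragment was called shared when its sequence lay in the partner gene with at most 15% mismatches, and 155 of 159 read pairs (97.5%; 93.7 to 99.0) in ES merged, 1875 of 1877 (99.9%) in ES indirect and 16 of 16 in MEF held a shared fragment. With no mismatch allowed, 79 of the 159 (49.7%) and 668 of the 1877 (35.6%) did. In the remainder neither fragment lay in the partner gene without a mismatch, and whether these mismatches were differences between the genes or reading errors was not tested. The 4 that were not shared in ES merged had both fragments antisense to their genes at full read length, and their best match to the mRNA strand of the partner gene had mismatches at 38% of bases or more. Of those not shared in ES indirect, Hist1h2bq with Hist1h2br was also antisense on both sides. Hist2h3c2 with Hist1h3f was sense on both sides, with fragments of 31 and 57 nt in the 3′ untranslated regions. Against the partner gene these had mismatches at 19.4% and 35.1% of bases. The match was sought on the mRNA strand, so for antisense fragments it does not tell whether they fit the partner gene.

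The arrangement of these fragments was that of pairs within an RNA. In ES merged, 115 of 159 were at full read length, and of the 109 with a coding position, 103 had RNA1 upstream of RNA2 when positions were counted from the start codon of each gene, with a median span of 201 nt. In ES indirect, 1552 of 1569 did so, with a median of 196 nt. Of those with a coding position but not at full read length, RNA2 lay upstream in 34 of 44 in ES merged and in 185 of 264 in ES indirect, and the outer ends lay within 2 nt in 15 and 84.

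Many of these read pairs had the same lengths and outer bases as another read pair at a different gene copy. Each read name occurred once in its library, so each read pair was placed once, but whether such read pairs were copies of 1 molecule placed at different genes was not tested, which bears on the ends of single genes too. Counted as 1 when their lengths and outer 20 bases were the same, the 159 read pairs of ES merged came to 79 and the 1877 of ES indirect to 1034, whereas all histone read pairs fell from 2701 to 2239 (ES-1), from 1601 to 1549 (ES-2) and from 7040 to 5695 (ES indirect). The loss lay in ES-1, where 136 came to 57, and ES-2 kept 22 of 23. A read pair is called distinct when no earlier read pair of its library, at any pair of genes, had the same lengths and outer bases. The number of distinct read pairs of a gene pair therefore depends on their order, and those not distinct need not repeat each other. Hist1h2bc with Hist1h2bg had 6 read pairs in ES merged, 4 from ES-1 and 2 from ES-2, all of them distinct. Hist1h2bg with Hist1h2bh had 4 (1 distinct), Hist1h3d with Hist1h3f 4 (2 distinct), and Hist1h1c with Hist1h1d and Hist1h2ad with Hist1h2ae 3 each (2 distinct each). In ES indirect the pairs with most read pairs were Hist1h1d with Hist1h1e (39; 27 distinct) and Hist1h1c with Hist1h1d (35; 25 distinct).

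The replication-independent histone genes, which encode variants not made in S phase only and whose mRNAs mostly carry poly(A) tails, were compared with them. The 11 genes had 66.2, 57.9, 53.5 and 7.73 exonic sense ends per 100000 protein-coding ends in the libraries, taken in the order above (82.8, 88.6, 98.1 and 20.2 with all ends), with H1f0 at 0 in every library. H2afx, which has a stem-loop of the same form, had 113, 68, 310 and 4 ends. It was joined to a replication-dependent histone mRNA by 33 read pairs in ES indirect, over 14 genes and 15 distinct by outer bases, and by 1 in ES-2. Of the 33, 29 were at full read length, where no linker was read. In 15 the H2afx fragment also lay in a histone exon, a count that leaves out histone fragments that also lay in H2afx. Without read pairs whose fragment also lay in the partner, no pair with H2afx was called in ES indirect. Placement at a near copy cannot be told apart from a contact. H2afj, with 22 ends in ES indirect, was joined to one by 4 read pairs there. The other 9 genes, among them H2afz (14, 14, 38 and 2 ends) and H3f3b (48, 63, 63 and 9 ends), were joined to none.

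Histone fragments that were not joined to a histone mRNA were joined mostly to rRNA. In ES-1, 56.7% (54.7 to 58.6) of 2497 had an rRNA partner, 21.7% (20.1 to 23.3) a snoRNA and 9.77% (8.67 to 11) another protein-coding RNA. For exonic sense ends of the other protein-coding names that were joined to another RNA, the comparison used here, the shares were 55.9%, 21.8% and 9.51%, inside these intervals. In ES-2 the histone shares were 51.3% (48.8 to 53.7), 8.99% (7.67 to 10.5) and 18.6% (16.7 to 20.6), against 54.3%, 10.2% and 16.4%, so that rRNA partners were slightly fewer and protein-coding partners slightly more. In ES indirect they were 60.7% (59.2 to 62.1), 1.18% and 19.0% (17.9 to 20.2), against 45.9%, 1.19% and 26.4% for exonic sense ends of other mRNAs joined to another RNA. With histone partners of the histone ends and same-gene partners of the others kept in, rRNA stood at 27.5% (26.6 to 28.4) of histone ends and 23.9% of exonic sense ends of the other mRNAs in ES indirect, a smaller difference. MEF, with 82 histone fragments not joined to a histone mRNA, had 20.7%, 4.88% and 34.1%, against 20.8%, 5.17% and 35.8%.

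The type of partner differed with the side of the linker on which the histone fragment lay. The other protein-coding RNAs were not split by side, so whether this is particular to histone mRNAs was not tested. With the histone fragment as RNA1, the partner was rRNA in 75.6% (ES-1), 72.3% (ES-2) and 70.2% (ES indirect) of cases, and with the histone fragment as RNA2 in 39.6%, 36.1% and 52.6%. snoRNA partners ran the other way in ES-1, at 8.61% with the histone as RNA1 and 33.4% as RNA2, and in ES-2, at 3.37% and 13.1%.

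**Figure D5:**
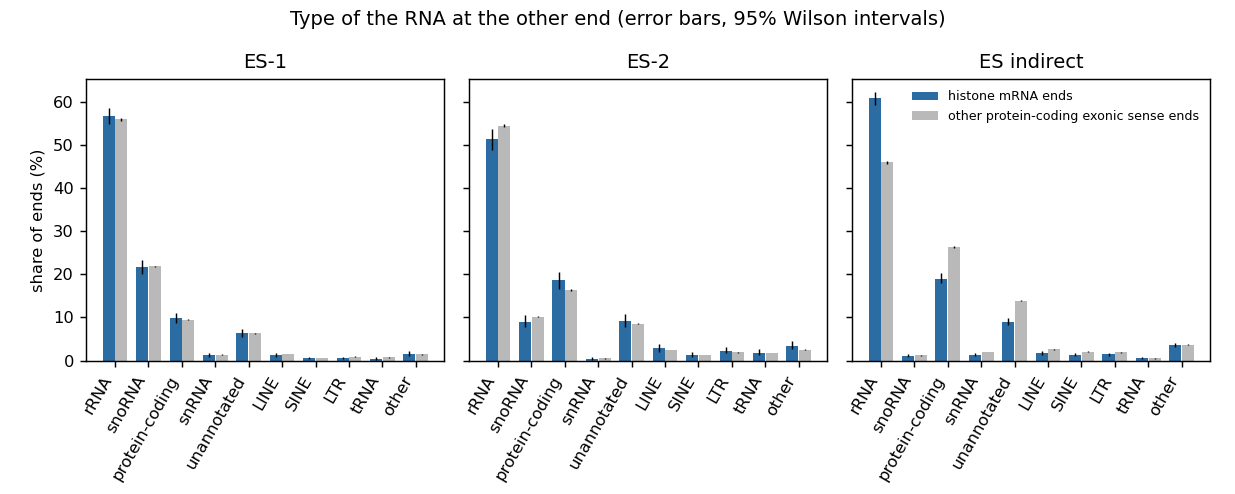
Type of partner RNA (share in %, vertical axis) of histone ends not joined to a histone mRNA, in ES-1, ES-2 and ES indirect. Beside it stands the share for exonic sense ends of other protein-coding RNAs joined to another RNA. Error bars are 95% Wilson intervals. The bars lie close together in ES-1 (rRNA 56.7 against 55.9) and apart in ES indirect (60.7 against 45.9).

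snoRNAs guide the modification of rRNA, those of the H/ACA type by pseudouridylation and those of the C/D type by methylation. Of 681 snoRNA partners in ES merged, 527 were named H/ACA and 111 C/D, from 167 snoRNA names. Snora33 was joined to histone mRNAs by 31 read pairs (24 in ES-1, 7 in ES-2) over 21 histone genes, and Snora73a by 28 (26 and 2) over 23. Several snoRNAs were split over gene copies. Snora81 had 53 in all, with 27 (24 and 3) over 17 genes for one copy and 26 (18 and 8) over 21 for another. SNORA63 copies summed to 37 (28 in ES-1, 9 in ES-2), SNORA48 copies to 34, of which 23 were in ES-2, and SNORA3 copies to 27. Snora64 had 16 read pairs and Snora73b 15, and the U1 snRNA, the splicing factor that binds 5′ splice sites, had 16 over 6 genes.

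Most partners were seen with few read pairs, and 515 of the 734 distinct named non-rRNA partners of ES merged were joined to a histone mRNA by 1 read pair. GC_rich, a name for low-complexity sequence, had 26 read pairs, of which 12 had a partner sequence that matched its stated place. In ES indirect U1 had 36 read pairs over 22 histone genes and U3, a C/D snoRNA of rRNA processing, had 24. The names Agap1 and Fhit had 25 and 21 read pairs there with a median partner length of 19 nt, and in each only 9 matched the genome at the stated place. Over all named non-rRNA partners, unannotated ones left out, 87.2%, 61.1%, 74.4% and 52.1% matched in the 4 libraries.

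snRNA partners were uneven among the classes in ES-1, with 18 of 433 (4.16%) in H4 and 10 of 344 (2.91%) in H1, against 0 of 576 (interval to 0.663%) in H2A, 1 of 577 (0.173%) in H2B and 2 of 567 (0.353%) in H3. In ES-2 each class had 1 or 2, with 0.654% in H4 and 1.04% in H1 and overlapping intervals, and in ES indirect H4 stood at 2.33%, H3 at 1.63%, H2B at 1.47%, H1 at 0.928% and H2A at 0.684%. Of the H4 read pairs of ES merged, 10 came from Hist1h4b with U6 and 6 from Hist1h4d with U1, and of those of H1, 6 came from Hist1h1c with U1. In ES merged these read pairs came to 2, 3 and 3 when the same lengths and outer bases were counted as 1.

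Pairs of RNAs were tested with a one-sided Fisher's exact test on read pairs between RNAs, and a call needed 3 or more read pairs and an adjusted p (Benjamini-Hochberg) below 0.05. In ES merged, 25 of 1506 observed pairs with a histone mRNA (1.66%) were called, against 0.895% of all pairs. In ES-1 16 of 921 were called (1.74%, against 1.09%), in ES-2 1 of 617 (0.162%, against 0.719%) and in ES indirect 211 of 1455 (14.5%, against 2.54%). MEF had 0 of 63 (a count of 0 allows up to 4.76%; 0.842% of all pairs), with 0 pairs of 3 or more read pairs and 55 at an unadjusted p under 0.05; the other settings gave MEF 0 calls except with every line counted (2 calls) and at 2 or more read pairs (1 call). The pair called in ES-2 was Hist1h3i with SNORA48 (3 read pairs), and the calls of ES-1 and ES-2 shared 0 pairs. Read pairs are not replicates, so these p-values describe the libraries. Pairs never observed did not enter the adjustment, which makes the adjusted p-values too small, and adjustment over all possible pairs left 17 calls in ES merged and 180 in ES indirect.

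Of the 25 pairs of ES merged, 17 joined 2 histone genes, Hist2h3c1 included. Hist1h2bc with Hist1h2bg reached an adjusted p of 7e-17 by Fisher's exact test. Hist2h3c1 had 6 read pairs each with Hist2h3b and Hist2h3c2 (4 distinct each), Hist1h2bg with Hist1h2bh had an adjusted p of 2.9e-10 and Hist1h3d with Hist1h3f of 1.9e-09, all by the same test. Without read pairs whose fragment also lay in the partner gene, at most 15% mismatches allowed, no pair of histone genes was called in any library. The filter settled this in advance. It left 4 read pairs between members in ES merged, 2 in ES indirect and 0 in MEF, each at a different pair of genes, and a call needs 3. ES merged then had 11 calls, 7 of which were among the 25, and ES indirect had 6, of which 2 were among the 211. In ES indirect 197 of the 211 joined 2 histone genes, and most of the other calls joined H2afx to H2A genes or 4930558J22Rik, a lincRNA whose fragments all lay in a histone exon, to H4 genes.

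The other 8 pairs of ES merged had a partner that is not a histone. Hist1h4b with U6, the catalytic snRNA of the spliceosome, had 10 read pairs and an adjusted p of 2.9e-19 (Fisher's exact test). All 10 were in ES-1 and held the same histone fragment, chr13:23849139-23849212, with a U6 fragment of 65 nt placed at 10 different copies of U6, and only 2 were distinct by outer bases. Hist1h4d with U1 had 6 read pairs (adjusted p of 0.0051, Fisher's exact test), 5 of them with the same histone fragment, and Hist1h1c with U1 had 6 (0.028, the same test). Hist1h1e with SNORA63 had 4 (0.021, the same test), all distinct. L1Md_F2 with Hist1h4k, Hist1h2be with Snora64, Hist1h3a with Snora52 and Hist1h3i with SNORA48 had 3 each. Without read pairs whose fragment also lay in the partner, L1Md_F2 with Hist1h4k was no longer called, whereas the other 7 pairs were. Except for Hist1h4b with U6, the adjusted p of each of these 8 was 1 over all possible pairs. When the same lengths and outer bases were counted as 1, 7 pairs with a histone mRNA were called in ES merged, 5 of them among the 25, and Hist1h4b with U6 was not among them.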

How the data were processed

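The authors deposited read pairs with no measured value: each line held the position, strand and sequence of RNA1 and RNA2 with an annotated type, name and region. Per the study's methods, read pairs with equal places and random barcode had been counted as 1, the linker located, and both fragments mapped uniquely; near copies of a gene can still receive each other's fragments. The submitters' processing notes name TopHat2 2.1.1, mm9 and NCBIM37; NCBIM37 with GENCODE vM1 was used here. Lines were counted (Python 3.11.15, pandas 2.3.3), fragments were searched in partner genes (edlib 1.3.9.post1), and pairs of RNAs more than 2000 bp apart, without rRNA, were tested by Fisher's exact test (SciPy 1.17.1), after a check on simulated counts. Members and lists were chosen with earlier results of these data known. Genes named were the 3 members of each class with most ends in ES merged, the 5 leading histone pairs, the 10 leading partners, called pairs up to 10, and listed genes; others were chosen after their values were seen. The 2 brain samples were not used. Nothing states that ES-1 and ES-2 were separate cultures, so their spread may be technical.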

Additional observations from a re-analysis of the deposited data

How the results depend on the processing

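Of 210 recomputed values for 32 results of ES merged and ES indirect, 141 moved by less than a limit and 69 moved further. The limit was the spread between ES-1 and ES-2 or the counting interval, and 1.5 times for counts. None of these values has a test between groups. Shares recomputed with ES-1 or ES-2 left out are among the 141, except the shared percentage of histone–histone read pairs without ES-1. Each such share is that of the library kept, so the spread between these libraries cannot show whether it is stable. The snoRNA partner share, for example, was 16.8% for ES merged, 8.99% without ES-1 and 21.7% without ES-2. With every line counted, ES merged gave H1 13.5%, H2B 20.9% and H3 24.7% of histone ends, 321 within-RNA and 360 histone–histone read pairs and 126 called pairs, and ES indirect an end share of 0.655%, H1 21.3%, H2A 19.1%, H2B 18%, H4 12%, 2374 within-RNA and 2941 histone–histone read pairs and an rRNA share of 59.2%. Without read pairs at full read length, ES merged gave H2A 22.9%, H3 22.9%, 7 within-RNA and 44 histone–histone read pairs and 8 called pairs, and ES indirect an end share of 0.837%, H2A 22.8%, H2B 26%, H3 19.5%, H4 18.7%, 131 within-RNA and 278 histone–histone read pairs (99.6% shared) and 30 called pairs. With the same lengths and outer 20 bases counted as 1, ES merged gave H1 14.1%, H3 22.8%, 79 histone–histone read pairs and 7 called pairs, and ES indirect H1 15.9%, H2A 21.9%, H3 24.8%, H4 15.6%, 1034 histone–histone read pairs and 133 called pairs. These 2 settings, the adjustment over all possible pairs, the use of exonic sense ends only (histone share 1.69% and 4.44%) and the window of 2 to 5 nt after the stem were chosen after seeing the data. Without fragments under 20 nt, H3 was 23% and rRNA partners 58.8% in ES merged, and in ES indirect the end share was 0.962%, rRNA 65% and protein-coding partners 16.9%. Of matching fragments, H3 took 23.2% in ES merged. As a share of ends that were not rRNA, histone ends were 0.146% and 0.53%. As a share of protein-coding ends, ES indirect gave 0.713% and 1.23% in its 2 flow cells. Leaving out continuous pairs left 7 and 121 within-RNA read pairs. RNA1 ends within 20 nt of the stem's last base, 7.03% and 8.9%, were 13.1% and 18.6% within 50 nt, and 5.61% and 6.65% at 2 to 5 nt after it. Shared pairs were 49.7% and 35.6% with no mismatch and 98.8% in ES indirect at 5%. Calls in ES merged were 73 at 2 or more read pairs and 6 at 5 or more (138 in ES indirect), and 11 and 6 without shared fragments. Leaving out ES-1 or ES-2 gave 21 to 68 within-RNA read pairs, 1 to 4 with RNA2 upstream, 23 to 136 between histone mRNAs, 91.3% to 98.5% of them shared, and 1 to 16 called pairs, the lower count from ES-2 alone. The cause of these moves was not tested. No paired analysis was possible because the comparisons rest on no test between groups and only ES cells have 2 libraries. MEF rests on 160 histone ends, which makes its intervals wide. In ES-2, 2 of 617 histone pairs had the 3 read pairs a call needs, against 5288 of all 108729 pairs.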
